A study of Mus musculus with 10 samples.

Results

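The 9 genes described here are Trex1, Samhd1, Adar, Ifih1, Eif2ak2, Mavs, Irf3, Tbk1 and Ifnar1, mouse genes that limit, sense or signal the presence of foreign or misplaced nucleic acid. They were taken by symbol, and each matched 1 Ensembl gene of GENCODE vM21, so the rows used were 9 of 55487 genes. The series mapped R-loops, structures in which RNA pairs with one DNA strand, in E14, a mouse embryonic stem cell line. Of its 10 samples, 7 are R-loop maps (MapR and BisMapR libraries) that were not analysed here. The other group, RNA-seq with 3 replicates, gave every value below. For these cells the labels name the E14 line and no genotype change or treatment. All were grown in serum with LIF, a GSK inhibitor at 3 µM and a MEK1/2 inhibitor at 1 µM. With 1 group, no difference between conditions could be tested. The labels do not say whether the replicates were separate cultures, so the spread between them may be technical.

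Cells recognise viral infection partly by finding RNA or DNA of an unusual form or in an unusual place. Cytosolic sensors of double-stranded RNA, among them the product of Ifih1, pass their signal through the mitochondrial adaptor MAVS to the kinase TBK1, which phosphorylates the transcription factor IRF3 and so switches on the type I interferon genes. Secreted interferon binds a receptor that includes IFNAR1 and induces a large set of antiviral genes. Enzymes such as TREX1, SAMHD1 and ADAR keep the cell's own nucleic acids from setting off this circuit, and human mutations in them cause Aicardi-Goutières syndrome, an inherited interferon-driven disease. Pluripotent stem cells are known for a weak interferon response compared with differentiated cells.

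Transcripts of 8 of the 9 genes were detected above the floor of 3 counts in every replicate, and those of the sensor gene Ifih1 in none. On average 7 of the 9 genes stood at 1 TPM or more (TPM is a transcript level scaled by gene length and library size), beside 44.1% of all protein-coding genes and 19.8% of all genes. Mavs was highest at 11.3 ± 4.27 TPM (SD, n = 3) and Tbk1 the lowest of the 7 at 3.77 ± 0.320 TPM (SD, n = 3). Trex1 lay under the limit at 0.733 ± 0.115 TPM (SD, n = 3), and Ifih1 had 0.0133 ± 0.0115 TPM (SD, n = 3). Of all protein-coding genes, 36.7% were, like Ifih1, at 3 counts or below in every replicate. The median log2(TPM + 1) of the 9 genes was 3.00, 2.35 and 2.57 in replicates 1, 2 and 3, and that of protein-coding genes with a mean TPM of at least 1 was 3.02, 2.72 and 2.43. The difference, -0.08 ± 0.26 (SD, n = 3), was smaller than its spread between replicates and differed in sign among them. The 2 sides were not chosen alike: all 9 genes were kept, Trex1 and Ifih1 included, while the comparison genes were limited by level.

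**Figure D1:**
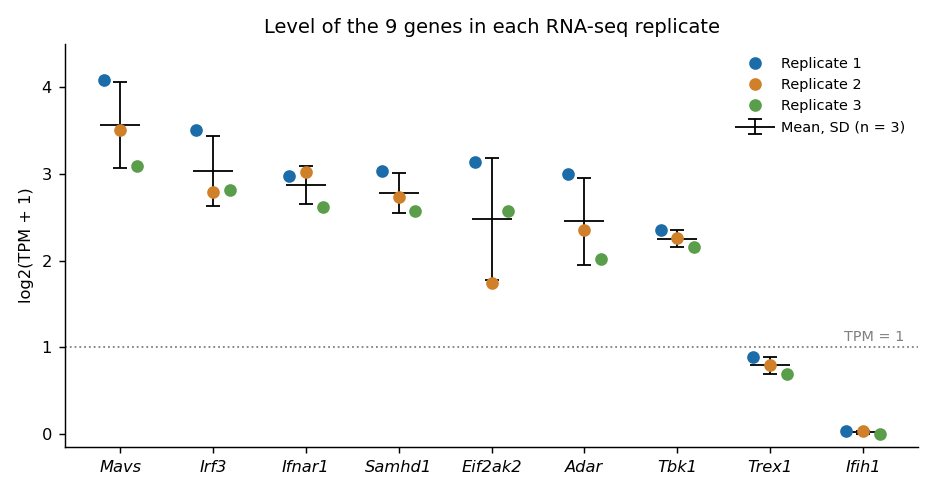
Level of each of the 9 genes in the 3 RNA-seq replicates, as log2(TPM + 1), with points for replicates and bars for the mean with its SD (n = 3). Mavs is highest at 11.3 TPM, 7 genes lie above 1 TPM in every replicate, Trex1 lies just under it and Ifih1 lies at the bottom of the axis.

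The 2 RNA sensors differed widely. Ifih1 (ENSMUSG00000026896, chromosome 2, 62595798 to 62646255, minus strand) encodes MDA5, a helicase that binds long double-stranded RNA. It had 1, 1 and 0 counts in replicates 1, 2 and 3, or 0.02, 0.02 and 0 TPM. The floor of 3 counts corresponds to 0.0456, 0.0455 and 0.0552 TPM for this gene, so expression was not detectable at this depth in any replicate. Eif2ak2 (ENSMUSG00000024079, chromosome 17, 78852564 to 78882573, minus strand) encodes PKR, a kinase that halts translation by phosphorylating the initiation factor eIF2α when it binds double-stranded RNA. It had 363, 185 and 190 counts, or 7.83, 2.34 and 4.93 TPM. Every replicate of Eif2ak2 lay above every replicate of Ifih1.

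Both sensor genes are known to be induced by interferon, and their promoters can be read side by side. RefSeq promoters (GRCm38.p6, 250 bases before to 50 bases after the start site) were matched for all 9 genes, Adar with 3 start sites and Trex1 with 2. The core of the interferon-stimulated response element was searched on both strands as GAAA, any 2 bases and GAAA again. It was found in 2 of the 9 genes, Ifih1 and Eif2ak2, and in 3.44% of 32851 promoters of the same length. Counting the first transcribed base as 1, the match lies at bases 33 to 42 in Ifih1 (chr2:62646206-62646505, minus strand) and at bases 19 to 28 in Eif2ak2 (chr17:78882523-78882822, minus strand). A shorter form, GAAANNGAA, was chosen after the sequences had been seen. It overlaps the longer motif, occurs in 8.56% of promoters and added the third start site of Adar (chr3:89730468-89730767, plus strand), with matches at bases -249 to -241 and 34 to 42. Further matches to the shorter form lie in Ifih1 on the other strand (bases -112 to -104) and in Eif2ak2 (bases 25 to 33). The promoters of Eif2ak2, Ifih1 and this Adar start are shown 5′ to 3′ on the gene's strand because they carry the matches. Capitals mark the longer motif alone in Eif2ak2 and Ifih1, and the shorter in Adar.
Eif2ak2: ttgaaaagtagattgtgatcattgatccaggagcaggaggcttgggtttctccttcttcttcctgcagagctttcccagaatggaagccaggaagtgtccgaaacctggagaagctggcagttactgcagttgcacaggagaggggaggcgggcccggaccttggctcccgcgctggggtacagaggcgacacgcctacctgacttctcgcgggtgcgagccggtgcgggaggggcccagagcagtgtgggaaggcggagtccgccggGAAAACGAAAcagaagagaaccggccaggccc
Ifih1: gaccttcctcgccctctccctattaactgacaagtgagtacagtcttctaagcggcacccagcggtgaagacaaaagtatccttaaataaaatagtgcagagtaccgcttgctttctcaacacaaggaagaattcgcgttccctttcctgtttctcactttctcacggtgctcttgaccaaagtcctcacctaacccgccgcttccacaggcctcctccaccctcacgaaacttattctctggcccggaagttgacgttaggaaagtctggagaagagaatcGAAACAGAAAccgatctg
Adar: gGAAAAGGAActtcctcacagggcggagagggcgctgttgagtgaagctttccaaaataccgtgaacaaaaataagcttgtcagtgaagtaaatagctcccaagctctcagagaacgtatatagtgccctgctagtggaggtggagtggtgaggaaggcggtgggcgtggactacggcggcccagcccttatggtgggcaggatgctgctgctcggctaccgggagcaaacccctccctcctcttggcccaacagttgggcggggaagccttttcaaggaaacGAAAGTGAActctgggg
The 2 genes with the longer motif stood at 5.03 and 0.0133 TPM on average, so the pattern was found both in a gene with detected transcripts and in one without. The core bound by STAT factors, TTCNNNGAA, occurred in 8.3% of promoters and in Samhd1 (bases -235 to -227), Eif2ak2 (-178 to -170), Ifnar1 (-5 to 4) and the third Adar start (23 to 31). A match describes letters in this window and shows no binding. The promoters of Trex1, Mavs, Tbk1 and Irf3 held none of the 3 motifs in this window. CpG dinucleotides numbered 37 in Tbk1, 29 in Samhd1, 26 in Ifnar1, 19 in Mavs, 18 in Irf3, 17 in Eif2ak2 and 14 in Ifih1. They numbered 6, 34 and 12 at the Adar starts and 7 and 5 at the Trex1 starts, beside a median of 7 over all promoters.

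**Figure D2:**
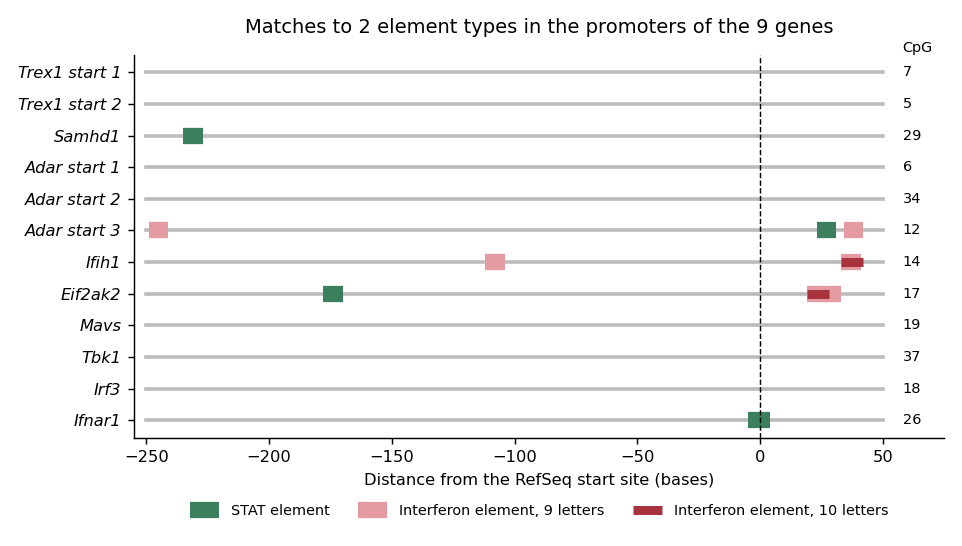
Matches to the motifs in the 300-base promoter windows of the 9 genes, by distance from the RefSeq start site in bases, with a grey line for each start site, coloured blocks for matches and the count of CpG dinucleotides at the right. The 10-letter interferon element is found just after the start of Ifih1 and of Eif2ak2.

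The level of Eif2ak2 depended on how its length was estimated. Its CPM (counts scaled by the library total alone, without length) was 31.8, 28.6 and 32.8, a span of 1.15-fold, whereas its TPM spanned 3.35-fold. The gene length listed in the tables, an average over the gene's transcripts weighted by their estimated abundance, was 1847, 4313 and 2164 nt. Replicate 2 thus had the greatest length and the lowest TPM, with a CPM close to the others. The annotation gives Eif2ak2 a coding transcript of 4313 nt and 3 noncoding ones of 574 to 704 nt. From the listed lengths, the coding transcript made up between 31.7 and 34% of the gene's estimated molecules in replicate 1, 100% in replicate 2 and between 40.4 and 42.5% in replicate 3. With the coding transcript's length used throughout, an alternative chosen after seeing the data, Eif2ak2 had 3.21, 2.34 and 2.39 TPM. Among expressed protein-coding genes with several transcripts, the median span of length between replicates was 1.10-fold 5.24% of 9006 genes spanned more than 1.5-fold and 0.811% more than 2-fold. Of the 7 genes expressed here 1 passed either limit, Eif2ak2.

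**Figure D3:**
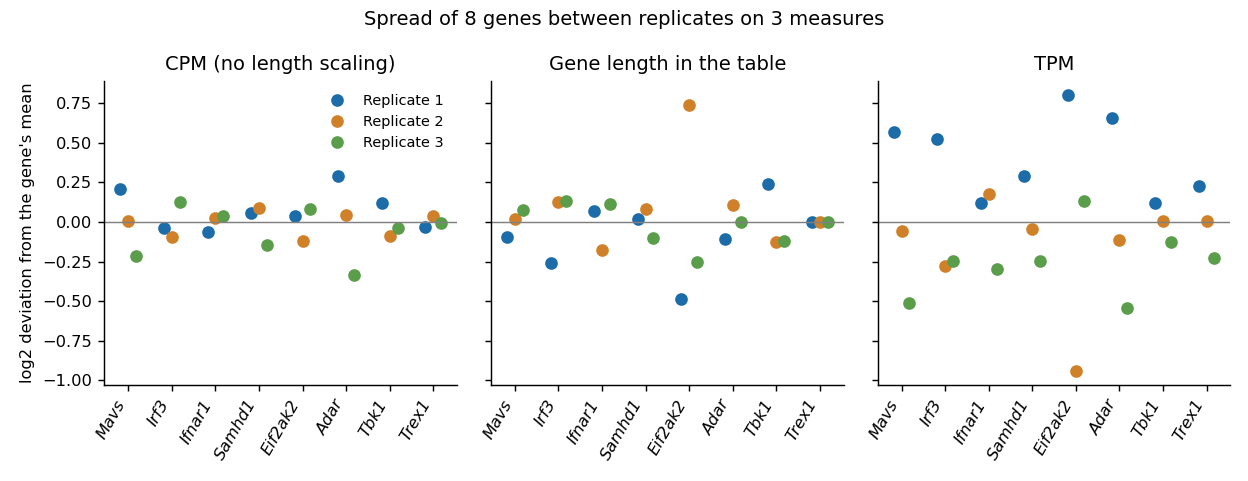
How far each replicate lies from the mean of its gene, on a log2 scale, for CPM, for the gene length listed in the tables and for TPM, in the 8 genes with counts in every replicate. For Eif2ak2, CPM stays within 1.15-fold while length spans 2.34-fold and TPM 3.35-fold.

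The listed lengths also say which transcripts the few Ifih1 counts were assigned to. In replicate 3, with no count, the length was 2998.8 nt, the plain mean of the gene's 5 annotated transcripts. In replicate 1 it was 2565 nt, the length of a retained-intron transcript, and in replicate 2 it was 3616 nt, that of a coding one. Of the 2 counts of Ifih1, 1 was thus assigned to a transcript annotated as coding. For Mavs, which has 3 transcripts of 2867 to 3057 nt and a noncoding one of 887 nt, the long class made up between 38.4 and 42.1% of estimated molecules in replicate 1, between 44.8 and 49.1% in replicate 2 and between 48.5 and 53.2% in replicate 3. The transcript sets of all 9 genes in the tables equalled those of the annotation.

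Among the enzymes that limit self nucleic acids, Samhd1 and Adar were expressed at similar levels and Trex1 was far lower. Samhd1 (ENSMUSG00000027639, chromosome 2, 157097533 to 157135265, minus strand), whose product breaks down deoxynucleotides, had 488, 282 and 215 counts, or 7.17, 5.67 and 4.93 TPM. Adar (ENSMUSG00000027951, chromosome 3, 89715022 to 89753446, plus strand), whose product turns adenosine into inosine in double-stranded RNA, had 718, 343 and 236 counts, or 6.98, 4.1 and 3.04 TPM. The ranges of Samhd1 and Adar overlapped. Adar is known to make a long, interferon-inducible protein form and a shorter constitutive one from different promoters. Its listed length was 3930, 4551 and 4217 nt, and with 9 transcripts of 481 to 5909 nt this average does not separate the forms. Adar overlaps Chrnb2, a nicotinic receptor gene on the other strand, by 7252 bp. Chrnb2, chosen after its values were seen, had 32, 10 and 5 counts. The counts of Adar and Chrnb2 were whole numbers in every replicate. Strand use in the counting is not given in the sources used here, so how reads of the overlap were assigned is not known.

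Trex1 (ENSMUSG00000049734, chromosome 9, 109057933 to 109059734, minus strand) encodes the main DNA exonuclease of the cytosol. It had 21.18, 12.6 and 10.95 estimated counts, or 0.85, 0.73 and 0.62 TPM, and every replicate lay below the lowest replicate of Tbk1. The whole gene lies within Atrip on the same strand, a gene for a partner of the checkpoint kinase ATR. Atrip had 304.8, 151.4 and 126.05 estimated counts. The counts of Trex1 and Atrip summed to whole numbers, 326, 164 and 137, of which Trex1 received 6.50%, 7.68% and 7.99%. Fractional values with whole sums arise when reads that match both genes are divided between them, so the Trex1 level is uncertain.

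The signalling chain from adaptor to transcription factor was expressed throughout. Mavs (ENSMUSG00000037523, chromosome 2, 131234063 to 131248025, plus strand) had 684, 337 and 259 counts, or 15.94, 10.37 and 7.55 TPM, with replicate 1 the highest. Irf3 (ENSMUSG00000003184, chromosome 7, 44997648 to 45002848, plus strand) had 180, 98 and 102 counts, or 10.34, 5.93 and 6.05 TPM. Tbk1 (ENSMUSG00000020115, chromosome 10, 121546455 to 121586787, minus strand) had 247, 121 and 112 counts, or 4.09, 3.78 and 3.45 TPM. Mavs exceeded Irf3 in each of the 3 libraries although their ranges overlapped, while every replicate of Tbk1 lay below every replicate of Irf3 and Mavs. With the longest annotated transcript as the length, an alternative chosen after seeing the data, Irf3 had 3.51, 2.74 and 2.83 TPM and Tbk1 had 3.16, 2.22 and 2.04 TPM, and the ranges of Irf3 and Tbk1 overlapped. Irf3 overlaps the oppositely transcribed Bcl2l12, a BCL2-like gene, by 1065 bp, the starts lying 1064 bp apart. Bcl2l12, chosen after its values were seen, had 2.30 ± 0.555 TPM (SD, n = 3). The counts of Irf3 and Bcl2l12 were whole numbers in every replicate, without the fractions seen for Trex1 and Atrip. Here too, how reads of the overlap were assigned is not known without the strand setting.

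Ifnar1 (ENSMUSG00000022967, chromosome 16, 91485238 to 91507441, plus strand) encodes a subunit of the type I interferon receptor. It had 411, 248 and 223 counts, or 6.87, 7.14 and 5.14 TPM. Its CPM was 36.0, 38.3 and 38.5, a coefficient of variation of 3.77% that lies below its counting error of 6.04%. With edgeR's TMM scaling of the libraries, Ifnar1 had 34.4, 37.4 and 42.0 CPM, a wider spread. The other subunit gene of the same receptor, Ifnar2, had 4.22, 2.49 and 2.14 TPM. Ifnar1 was higher than Ifnar2 in every replicate, and the ranges did not overlap.

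In order of mean TPM the genes ran Mavs, Irf3, Ifnar1, Samhd1, Eif2ak2, Adar, Tbk1, Trex1 and Ifih1. Only 2 of the 8 neighbouring pairs had ranges that did not overlap, Tbk1 above Trex1 and Trex1 above Ifih1. Among the 7 expressed genes, 7 of 21 pairs had ranges that did not overlap, so much of the order from Mavs to Tbk1 is not resolved by these replicates. With 1 fixed length per gene, an alternative chosen after seeing the data, the number was 9 of 21, and Adar passed Eif2ak2. With the longest annotated transcript as the length, likewise chosen after seeing the data, Irf3 fell from the second place to the fifth, at 3.03 ± 0.418 TPM (SD, n = 3), since its listed lengths of 779, 1017 and 1021 nt are far below its longest transcript of 2031 nt.

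Variation between replicates was tested over all genes with edgeR's goodness-of-fit test, which asks whether a gene varied more than genes of similar abundance. Of the 9 genes, 8 passed the filter on low counts and were tested, and 0 were called at a Benjamini-Hochberg adjusted p under 0.05, beside 1.84% of 12577 genes. None of the 8 had an unadjusted p under 0.05 (0 genes), the values running from 0.402 for Adar to 0.975 for Samhd1 by edgeR. DESeq2, by its own mark for genes of outlying dispersion, also called 0 of the 8, beside 0.493% of 12577 genes. The smallest unadjusted p fell to Adar, whose CPM was 62.9, 53.0 and 40.8, a coefficient of variation of 21.2% where counting error alone gives 5.34%. With TMM scaling, as the test uses, the Adar values were 60.2, 51.7 and 44.5 CPM. Next by unadjusted p came Irf3 (0.542), Eif2ak2 (0.570), Ifnar1 (0.682) and Mavs (0.750) by edgeR. For Trex1 the observed 2.48% was far below the counting error of 27.0%, so its agreement between replicates rests on few counts. On the TPM scale, replicate 1 was highest in 6 of the 7 expressed genes, beside 86.5% of expressed protein-coding genes, and replicate 3 lowest in 5 of 7, beside 79.4%. These shares are near those of all expressed genes.

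The other genes of the circuit were taken as 9 lists of 99 genes. Of these, 43 stood at a mean TPM of 1 or more, or 43.4%, beside 44.1% of protein-coding genes. At 3 counts or below in every replicate were 31 of the 99, 25 with no count at all, beside 36.7% of protein-coding genes at 3 counts or below. The variability test took in 56 of the 99 and called 0 by edgeR, beside 1.84% of all 12577 genes tested. At an unadjusted p under 0.05 by edgeR were 0 of the 56, beside 875 of the 12577. DESeq2 called 0 of the 56, beside 0.493% of the 12577.

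Clearance enzymes stood highest among the lists. Of 8 genes, 7 reached a mean TPM of 1, beside 44.1% of all protein-coding genes, and the median was 8.98 TPM. Rnaseh2a and Rnaseh2b, subunits of the RNase H2 enzyme that cuts RNA in RNA-DNA hybrids, had 35.3 ± 4.59 and 25.8 ± 3.01 TPM (SD, n = 3). The counts of Rnaseh2a were fractional in every replicate (733.66 in replicate 1), as when reads are divided between loci, so its level is uncertain. Pnpt1, a mitochondrial RNA-degrading enzyme, had 25.6 ± 3.68 TPM (SD, n = 3). All 3 exceeded the highest replicate of Mavs in every replicate. Trex2, a relative of Trex1, had 1, 0 and 0 counts.

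Other genes of sensing, adaptors and effectors among them, varied by list, beside 44.1% of all protein-coding genes at a mean TPM of 1 or more. The RNA list (45.5%) and the cytosolic DNA list (50%) lay near that share, and the endosomal list under it. Of 11 RNA sensors and effectors, 5 reached a mean TPM of 1, led by the helicase gene Dhx9 at 54.2 ± 7.71 TPM (SD, n = 3), a gene with broad roles in RNA metabolism. Ddx58, which encodes the sensor RIG-I and like Ifih1 signals through MAVS, had 0.68, 0.65 and 0.75 TPM from 62, 35 and 42 counts. Ddx58 was therefore detected in every replicate where Ifih1 was not, though below 1 TPM. Of 4 genes of cytosolic DNA sensing, 2 reached 1 TPM, the sensor gene Aim2 at 5.54 ± 0.866 and the adaptor gene Tmem173 (STING) at 2.09 ± 0.660 TPM (SD, n = 3). Cgas had 0.503 ± 0.0473 TPM (SD, n = 3) and Ifi204 no count. Of 7 genes of endosomal sensing, adaptors included, 0 reached 1 TPM. Unc93b1, a chaperone of Toll-like receptors, was the highest of them at 0.977 ± 0.258 TPM (SD, n = 3), and Tlr7, Tlr8 and Tlr9 had no count.

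Signalling genes and their negative regulators reached a mean TPM of 1 in 69.2 to 71.4% of each list, beside 44.1% of all protein-coding genes. Of 13 further adaptors, kinases and factors, 9 reached 1 TPM, with Chuk, an IκB kinase gene, highest at 7.50 ± 1.79 TPM (SD, n = 3). The counts of Chuk were fractional in replicates 1 and 2 (750.95 and 440.96), so its level is uncertain. Irf7, the interferon-induced relative of Irf3, had 0 counts in every replicate, where Irf3 had at least 98. Of 13 receptor, JAK and STAT genes, 9 reached 1 TPM, from Jak1 at 5.73 ± 2.07 TPM (SD, n = 3) down to Irf2 at 0.143 ± 0.0493 TPM (SD, n = 3), the lowest of the list. Among 7 negative regulators, 5 reached 1 TPM, with Pias1 at 11.98 ± 2.59 and Ptpn2 at 10.2 ± 1.69 TPM (SD, n = 3) and Nlrx1 lowest at 0.140 ± 0.0346 TPM (SD, n = 3).

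The interferon genes were not detected, and the interferon-stimulated genes ranged from no count to the highest level of the 99 genes. All 10 interferon genes listed, Ifnb1 among them, had 0 counts in every replicate, so their expression was not detectable at this depth. For Ifnb1 the floor of 3 counts corresponds to 0.181, 0.262 and 0.256 TPM in replicates 1, 2 and 3. Of 26 interferon-stimulated genes, 6 reached a mean TPM of 1 and 15 were at 3 counts or below in every replicate. The same shares over protein-coding genes were 44.1% and 36.7%. Isg15, a ubiquitin-like modifier strongly induced by interferon, was among 10 of the 26 with no count. The highest were Ifitm2 at 123 ± 43.0, Ifitm1 at 58.1 ± 7.26 and Ifitm3 at 48.1 ± 7.18 TPM (SD, n = 3), membrane proteins that block viral entry. The counts of Ifitm2 were fractional in every replicate (2372.55 in replicate 1) and those of Ifitm3 in replicate 1 (815.25), as when reads are divided between loci, so both levels are uncertain. The counts of Ifitm1 were whole in every replicate. B2m, a subunit of class I MHC molecules, had 14.8 ± 2.08 TPM (SD, n = 3). The 10-letter interferon element was found in 12 of the 21 interferon-stimulated genes whose promoters matched by symbol, of which 4 reached 1 TPM and 5 had no count. Over all 9 lists it was found in 23 of 79 genes with a promoter, 6 of them at 1 TPM or more. A gene can have several start sites, so these shares are per gene and that of 3.44% is per promoter.

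**Figure D4:**
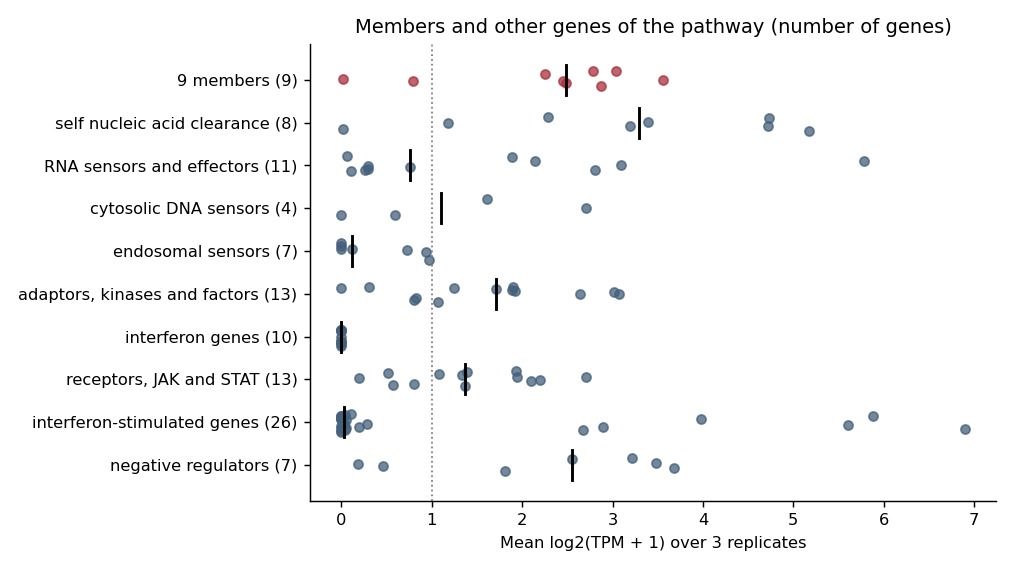
Mean log2(TPM + 1) over 3 replicates for the 9 genes (red) and for 9 lists of other genes of the circuit (blue), with a point for each gene, a black bar for each list's median and a dotted line at 1 TPM. Interferon genes lie at 0, most interferon-stimulated genes lie near 0, and the clearance enzymes have the highest median.

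By level alone, the gene of these lists nearest to each of the 9 was found from the mean absolute difference in log2(TPM + 1) over 3 replicates. Samhd1 lay nearest to Aim2, at a difference of 0.08. Irf3 lay nearest to Azi2 (0.10), an adaptor of TBK1, and Tbk1 to Oas1a (0.16), an oligoadenylate synthetase gene. The counts of Oas1a were fractional in replicates 1 and 3 (182.22 and 122.23), so its level is uncertain. Mavs lay nearest to Pias1 (0.19), Adar to Ikbkb (0.18), Ifnar1 to Aim2 (0.17) and Trex1 to Ifnlr1 (0.01). Ifih1 lay nearest to Gbp3, both at the floor. Eif2ak2 had no close neighbour on this scale, the nearest being Skiv2l at 0.32. Its TPM spanned 3.35-fold between replicates as deposited and 1.37-fold with 1 fixed length per gene. Nearest genes were not sought with fixed lengths. The 3 replicates are of 1 condition, so this is likeness of level only.

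The libraries held between 5787357 and 11420425 estimated counts, with counts in 20073 to 21899 genes, and the floor of 3 counts lay between 0.263 and 0.518 CPM. All 10 listed markers of pluripotent cells reached 1 TPM, from Utf1 at 6.05 to Dppa5a at 554 TPM on average. The counts of Dppa5a (7550.61 in replicate 1), Zfp42 and Tdgf1 were fractional in every replicate. Those of Nanog were fractional in replicates 1 and 3 and those of Tfcp2l1 in replicate 3, so the levels of all these markers are uncertain. The marker genes were chosen after their values were seen, so they are no test of the label. Of 8 markers of macrophages and blood, cells known for a strong interferon response, Ptprc, Csf1r, Adgre1, Aif1, Lyz2 and Tyrobp had 0 counts, and Cd68, a lysosomal protein gene, had 5.10 ± 1.01 TPM (SD, n = 3). The summed level of that list lay between 4.25 and 6.24 TPM. Of 8 fibroblast markers, which feeder cells would carry, 5 had no count and Thy1 was highest with 49, 27 and 11 counts, the list summing to between 1.24 and 3.37 TPM. Of 6 primitive endoderm markers 0 reached 1 TPM, where 44.1% of all protein-coding genes did. In bulk RNA, fewer cells expressing a gene and less RNA per cell cannot be told apart.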

How the data were processed

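Strand-specific RNA-seq libraries of E14 cells were prepared after removal of ribosomal RNA, per the labels' protocols. Each library has 1 table whose headers are those of RSEM gene output. STAR, RSEM and mm10 are named in the submitters' processing notes, while versions, annotation release and strand setting are not given in the sources used here. Per the file headers, the authors deposited expected counts (estimated counts, not normalized), TPM and FPKM; FPKM was not used. The listed length and effective length are, per the file headers, other columns of the same tables. Short RNAs take much TPM: genes of effective length under 100 nt held between 60.3 and 65.8% of it, which lowers the TPM of every other gene.

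Symbols, types and coordinates came from GENCODE vM21 (GRCm38), in which 55227 of 55487 gene IDs matched and 260 did not. CPM was computed from library totals. Counts were rounded for edgeR 4.0.16 (TMM, filterByExpr, intercept-only design, trended dispersion, gof; R 4.3.3) and DESeq2 1.42.0, and other steps used Python 3.11.15. Adjusted p-values cover all genes tested. The test was checked on simulated data of 12577 genes, with 6 of 50 genes called at 2-fold, 38 of 48 at 4-fold, 47 of 47 at 8-fold, and 3 of 12061 unchanged genes called. The members, lists and tests were chosen with earlier results of these data known. The genes named are the 9 members, the highest and lowest of each list, list genes with a mean TPM of at least 10 or called as variable, nearest genes by level, and annotated overlaps, of which 1 is not reported here; Ddx58, Ifnar2, Tmem173, Cgas, Tlr8, Tlr9, Bcl2l12, Chrnb2 and the marker genes fall outside that rule and were chosen after their values were seen. Alternatives changed normalization, filter, dispersion, tool, threshold, pseudocount, denominator, length and replicates.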

Additional observations from a re-analysis of the deposited data

How the results depend on the processing

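For 13 results, 98 alternatives were computed, 77 planned and 21 chosen after seeing the data. The count of 0 varying genes among the 9 stayed at 0 in each, leaving out each replicate included (from 0 to 0). Of the 9, 8 were tested, and all 9 only without the filter on low counts. In simulated data the test called 6 of 50 genes at 2-fold, so a count of 0 says little about variation of that size. The number of the 9 genes at a mean TPM of at least 1 ran from 5 at a limit of 5 TPM to 8 by CPM, and was 7 without any one replicate. Of the 99 other genes, 43 became 22 at a limit of 5 TPM, by construction of the stricter limit, 58 by CPM, and between 42 and 44 without any one replicate.

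The difference of medians between the 9 genes and expressed protein-coding genes was -0.08. It reversed to 2.11 when all protein-coding genes were taken, unexpressed ones included, and was -0.73 with means in place of medians. The 9 genes include Trex1 at 0.733 and Ifih1 at 0.0133 TPM, below the limit of 1 TPM set on the comparison genes. Their part in the shift with means was not tested. The difference of medians ran from -0.20 to 0.06 when each replicate was left out, so its sign is not settled.

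Levels of single genes moved most with the denominator. With short genes left out, TPM rose between 2.67 and 2.74 times and Trex1 reached 2.00, past the limit of 1. With protein-coding genes alone it rose between 5.66 and 5.98 times. The longest transcript as length gave between 0.407 and 0.973 of the deposited level. Without replicate 1, levels were between 0.722 and 0.962 times the mean of all 3. They were between 0.75 and 1.268 times without replicate 2 and between 1.01 and 1.5 times without replicate 3. The 0.75 and the 1.5 came from Ifih1, which was at 3 counts or below in every replicate. Depth limits the low end: Ifih1 cannot be ordered against other genes at 3 counts or below.

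No paired analysis was possible because only 1 group has expression tables, so replicate numbers shared with the R-loop groups pair nothing here.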
